A study of Homo sapiens with 6 samples.

Results

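The intermediate filament gene VIM, the spectrin genes SPTBN1, SPTAN1 and SPTB, the ankyrin gene ANK1 and the membrane linker genes EZR, MSN and RDX were followed in the lymphoma cells OCI-LY1, a line established from a human diffuse large B cell lymphoma. They are 8 of the 23250 genes in the deposited read count table, found there by symbol. VIM and SPTBN1 were selected on this same comparison, for their much higher counts with mutant BCL6, and the other 6 are their paralogues and partners. The differences of these 8 genes between the rescues are therefore given as a description, with no test. In all 6 libraries the cells' own BCL6, a transcriptional repressor that germinal centre B cells depend on, had been depleted with siRNA. BCL6 was then put back from an introduced copy, either wild-type (the wild-type libraries, 3 in number) or mutated in the RD2 repression domain (the mutant libraries, also 3). No library lacked such a rescue, and all came from 1 cell line. Whether separate cultures were used is not in the labels, so p-values reflect the variation among these 6 libraries alone, which may be technical.

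Spectrin is a long, flexible rod built from alpha and beta chains that pair side by side. It lies under the plasma membrane, ties short actin filaments into a net, and is fastened to membrane proteins by ankyrins and by protein 4.1. Ezrin, moesin and radixin (the ERM proteins, encoded by EZR, MSN and RDX) instead link single membrane proteins to cortical actin, with an N-terminal domain that binds the membrane and a C-terminal tail that binds actin. Vimentin forms intermediate filaments, and in lymphocytes it is known for a cage around the nucleus. In B cells the ERM proteins and spectrin are known to take part in the cell's shape and in the placing of surface receptors.

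Promoter sequences of VIM and SPTBN1 are printed here because these are the 2 genes that were far higher with mutant BCL6. Each runs from 250 bases before to 50 bases after a RefSeq transcript start on GRCh38.p14, 5′ to 3′ on the plus strand, on which both genes lie. The VIM window is chr10:17227991-17228290, and the SPTBN1 windows are chr2:54456077-54456376 and chr2:54558133-54558432. Capitals mark GGGCGG, the GC box letters, or its reverse complement.
VIM: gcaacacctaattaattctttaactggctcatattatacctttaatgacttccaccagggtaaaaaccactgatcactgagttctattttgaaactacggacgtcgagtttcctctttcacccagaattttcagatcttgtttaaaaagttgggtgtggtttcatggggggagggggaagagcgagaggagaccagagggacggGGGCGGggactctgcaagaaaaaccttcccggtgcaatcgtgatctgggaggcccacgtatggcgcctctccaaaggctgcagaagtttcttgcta
SPTBN1 first start: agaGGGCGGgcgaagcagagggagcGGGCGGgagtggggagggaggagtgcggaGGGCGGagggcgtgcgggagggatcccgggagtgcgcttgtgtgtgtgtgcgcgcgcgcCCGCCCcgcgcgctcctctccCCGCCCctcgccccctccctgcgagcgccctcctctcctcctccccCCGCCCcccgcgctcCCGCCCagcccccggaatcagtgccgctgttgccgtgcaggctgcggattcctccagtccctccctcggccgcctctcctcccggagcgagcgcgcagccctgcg
SPTBN1 second start: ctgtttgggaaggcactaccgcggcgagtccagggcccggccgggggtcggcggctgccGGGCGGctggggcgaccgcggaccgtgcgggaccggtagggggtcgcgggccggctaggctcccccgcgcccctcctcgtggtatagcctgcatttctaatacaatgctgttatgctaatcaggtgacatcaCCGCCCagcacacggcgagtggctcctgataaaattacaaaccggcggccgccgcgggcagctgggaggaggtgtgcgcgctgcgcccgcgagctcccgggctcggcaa
These letters stood 7 times in the first SPTBN1 window, 2 times in the second and 1 time in the VIM window. The RefSeq table held 10 windows for 7 of the 8 genes, ANK1 being the gene without an entry, and all 10 contained GGGCGG on either strand, against 45.0% of the 35116 windows of this length. That share is not matched for base composition, and GGGCGG consists of G and C alone. G and C in the 10 windows ran from 48.0% (VIM) to 80.3% (RDX), and most windows were above the median over all windows. Nothing particular to these genes is read from this. TTCNNNGAA, the core letters shared by BCL6 and STAT motifs, was in 0 of the 10 windows and in 7.66% of all windows. This says only that these letters are not in these windows. TGANTCA, the AP-1 letters, was found in the EZR window alone (7.71% of all windows), TATAAA in a SPTAN1 and a SPTB window (11.5%), and CACGTG in a MSN window (7.26%). The VIM window differed from the SPTBN1 windows in base composition, with 48.0% G and C and 10 CpG dinucleotides. The SPTBN1 windows had 77.3% and 69.7% G and C, with 37 and 36 CpG dinucleotides. The median over all windows was 58.7% G and C and 14.0 CpG dinucleotides.

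Total counts per library were between 26298456 and 27574867, and BCL6 itself was 1.31-fold lower with mutant BCL6 (log2 fold change -0.38; quasi-likelihood test in edgeR, adjusted p = 7.91e-10). These counts join the cells' own and the introduced BCL6 transcript, and its lower amount and the mutation cannot be told apart. Of 12406 genes tested, 70.1% were called at an adjusted p under 0.05, 35.4% as higher and 34.8% as lower with mutant BCL6, and the groups did not overlap for 72.4%. Of the 8 genes, 7 passed the filter on low counts, 4 of these were called higher and 3 lower, and the groups did not overlap for any of the 7. VIM passed the filter only through the mutant libraries. Since this contrast chose the genes, nothing is read from these counts. The labelled cell type was checked with B cell markers, and all 6 were abundant, with a summed level of 3227 to 3265 CPM (counts scaled to library size and by TMM, the trimmed mean of M-values) with wild-type BCL6 and 2896 to 2986 CPM with mutant BCL6. In bulk RNA, fewer cells with a transcript and less of it per cell cannot be told apart.

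VIM was close to the detection limit with wild-type BCL6 and low but clearly detected with the mutant. The wild-type libraries held 8, 14 and 4 counts and the mutant libraries 72, 85 and 62. Every mutant library was above every wild-type library, and the lowest wild-type library had 1 count more than the floor of 3 counts. In CPM this was 0.292, 0.536 and 0.147 against 2.69, 3.17 and 2.33, an 8.40-fold difference of the group means (log2 fold change 3.07, SE 0.27). From the summed counts, 26 against 219, the ratio was 8.48 with an exact 95% interval of 5.63 to 13.3 that covers counting error only. Variation between libraries is not in this interval. VIM was selected for these same counts, so the interval describes them and is not a test. The spread between wild-type libraries was wide (coefficient of variation 60.5%, against 15.4% with mutant BCL6). Without the second wild-type library the log2 fold change was 3.61, and over the libraries left out in turn it ran from 2.72 to 3.61. Measured against LMNB1, the lamin gene of the nuclear lining, the log2 ratio of VIM to LMNB1 counts was -10.75 ± 0.93 (SD, n = 3) with wild-type BCL6 and -7.90 ± 0.19 with mutant BCL6.

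Because VIM is abundant in mesenchymal and myeloid cells, markers of such cells were read beside it. The 6 fibroblast markers summed to 0.110 to 0.328 CPM with wild-type BCL6 and 0.150 to 0.372 CPM with mutant BCL6, ranges that overlap, and the collagen gene COL3A1 and LUM were at 0 in every library. The 5 myeloid markers summed to 0.110 to 0.292 CPM with wild-type BCL6 and 0.484 to 0.821 CPM with mutant BCL6, with MPO at 0 in every library. The myeloid sum was thus higher in every mutant library, as VIM was, but it rests on few counts. CD14 held 4, 3 and 0 counts against 14, 8 and 4, and LYZ 0, 0 and 0 against 3, 1 and 6. CSF1R (1, 0 and 1 against 0, 2 and 1) and ITGAM (3, 4 and 2 against 5, 2 and 4) overlapped between the rescues. None of these myeloid markers passed the filter on low counts. The summed level of the 5 T cell markers was 0 to 0.115 against 0.149 to 0.263 CPM, most of it from CD8A (1, 2 and 0 against 3, 6 and 5 counts), with CD3E and CD2 at 0 throughout and at most 1 count of CD3D and of CD3G in any library. The part of these cell types in the VIM difference was not tested. Of 5 epithelial markers KRT19, KRT5 and KRT14 were at 0 in every library, and the summed level, nearly all EPCAM, was lower with mutant BCL6 (15.5 to 16.7 against 3.47 to 4.06 CPM). The antisense gene VIM-AS1 overlaps the start of VIM in the GENCODE annotation, and VIM2P is a processed pseudogene. With no strand setting given in the sources used here, reads of VIM cannot be assigned with certainty.

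**Figure D1:**
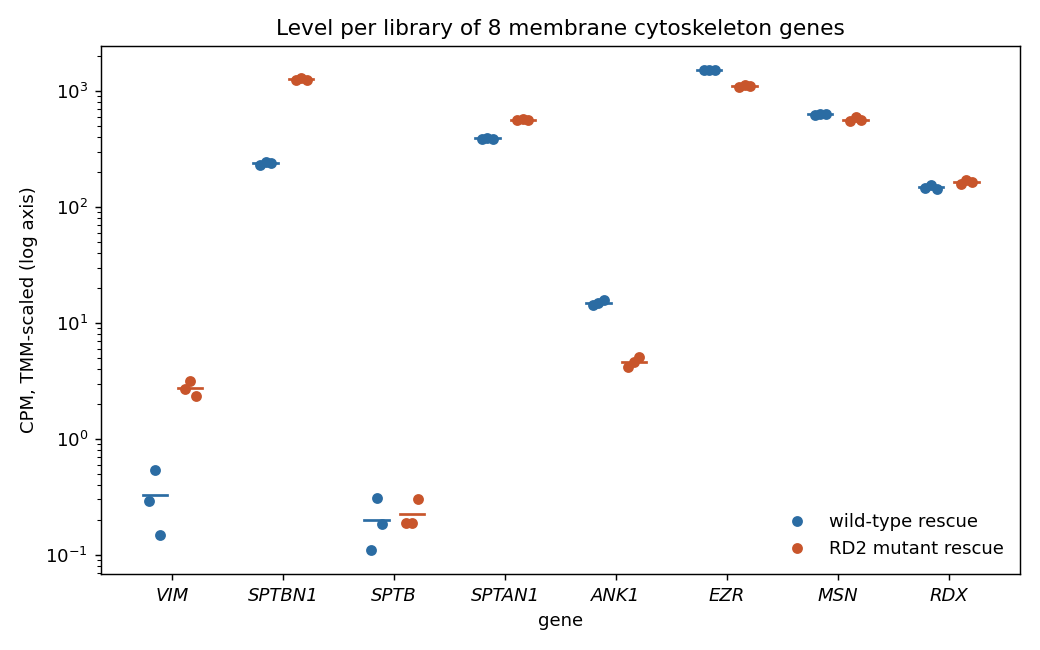
Level of each of the 8 genes in each library, as TMM-scaled CPM on a log axis, with wild-type libraries in blue, mutant libraries in orange and a bar at each group mean. VIM and SPTBN1 stand far higher with mutant BCL6 and ANK1 far lower, SPTB overlaps between the groups near 0.2 CPM, and EZR, MSN and RDX differ by less than 1.4-fold.

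SPTBN1, which encodes the widely expressed beta chain of non-erythroid spectrin (beta-II), was abundant in both rescues and far higher with the mutant. The counts were 6331, 6419 and 6506 with wild-type BCL6 and 33297, 34679 and 33154 with mutant BCL6. The libraries of each rescue lay within a few percent of each other, and the gap between the groups was many times that spread. The levels were 238 ± 7.38 and 1260 ± 27.5 CPM (SD, n = 3 each), a 5.28-fold difference (log2 fold change 2.40, SE 0.03). At this depth the value is far more precise than that of VIM: with each library left out in turn it ran from 2.38 to 2.43.

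SPTAN1 encodes the alpha chain that pairs with SPTBN1. It held 10611, 10352 and 10618 counts with wild-type BCL6 and 15023, 15350 and 14929 with mutant BCL6. It was higher in every mutant library, but by much less than its partner, from 391 ± 4.76 to 564 ± 6.34 CPM, or 1.44-fold (log2 fold change 0.53, SE 0.03). The log2 ratio of SPTBN1 to SPTAN1 counts was -0.75, -0.69 and -0.71 in the wild-type libraries and 1.15, 1.18 and 1.15 in the mutant libraries. In counts, the SPTBN1 transcript thus went from below that of SPTAN1 to above it.

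SPTB, the beta chain of red cell spectrin, was near the detection limit, with 3, 8 and 5 counts with wild-type BCL6 and 5, 5 and 8 with mutant BCL6, so the groups overlapped and the gene was not fitted. The ratio of the summed counts was 1.13 (exact 95% interval 0.545 to 2.37, counting error only). At this depth the counts do not tell ratios between those bounds apart, and variation between libraries is not in the interval. The 6 erythroid markers were at a summed 0.0746 to 0.115 CPM over all libraries, with HBA2 and AHSP among those at 0.

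Among the relatives that encode further beta chains, SPTBN4 and SPTBN5 were scarce. Not every beta chain gene is reported here, so the total of beta chain transcript is not given. SPTBN4 did not pass the test (13, 9 and 10 against 10, 11 and 11 counts; edgeR, adjusted p = 0.982), and SPTBN5 held 1 to 8 counts in every library. To compare genes, levels were divided by the length of the longest GENCODE v29 protein-coding transcript and are given as CPM per kilobase. On that scale the ratio of SPTBN1 to SPTAN1 was 0.460, 0.478 and 0.473 in the wild-type libraries and 1.71, 1.74 and 1.71 in the mutant libraries. It was thus below 1 in every wild-type library and above 1 in every mutant library. With the longest coding sequence as length, the mean ratios were 0.644 and 2.36, so the absolute values depend on the length chosen and the order of the rescues does not.

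**Figure D2:**
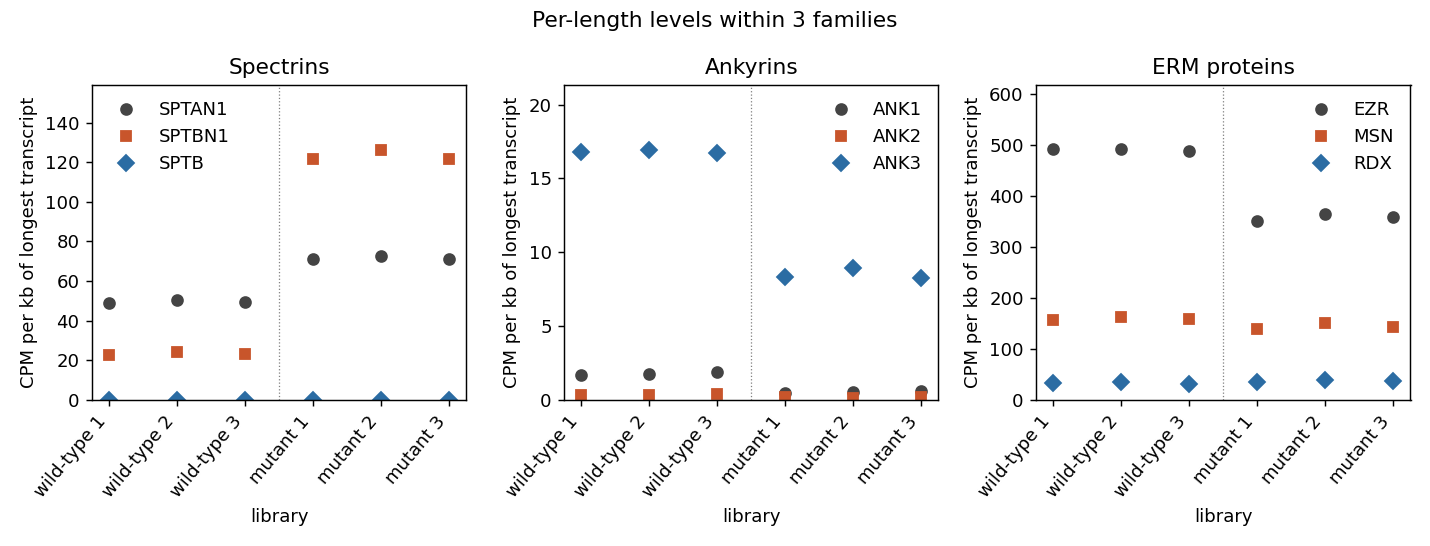
Per-length levels (CPM per kilobase of the longest transcript) of 3 spectrin, 3 ankyrin and 3 ERM genes in each of the 6 libraries, on linear axes that start at 0, with a dotted line between the rescues. SPTBN1 passes SPTAN1 in the mutant libraries while SPTB lies close to 0 in all libraries, ANK3 and ANK1 both stand lower there, and the order EZR, MSN, RDX is the same in all libraries.

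ANK1, which encodes the ankyrin first known for fastening spectrin to the red cell membrane, went the other way from SPTBN1. The wild-type libraries held 394, 386 and 428 counts and the mutant libraries 112, 123 and 134. All mutant libraries were below all wild-type libraries, at 4.60 ± 0.427 against 14.9 ± 0.680 CPM, a 3.25-fold difference (log2 fold change -1.70, SE 0.09). Its paralogues were lower too. ANK3, the most abundant ankyrin gene here, fell 1.98-fold, from 284 ± 1.78 to 143 ± 6.02 CPM (log2 fold change -0.99; edgeR, adjusted p = 6.60e-16). ANK2, named after its value was seen, fell 2.29-fold at a low level (5.27 ± 0.491 to 2.31 ± 0.253 CPM; edgeR, adjusted p = 8.23e-08). Per kilobase, ANK3 held 88.7 ± 0.560% of ankyrin transcript with wild-type BCL6 and 92.3 ± 0.781% with mutant BCL6, and ANK1 9.30 ± 0.385% and 5.90 ± 0.589%. Summed ankyrin stood at 19.0 ± 0.126 against 9.20 ± 0.339 CPM per kilobase, while SPTBN1 was higher with mutant BCL6.

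The ERM genes differed little by comparison. EZR, the ezrin gene, was the most abundant of the 8 genes per kilobase in both rescues. Its counts were 41723, 39788 and 41232 with wild-type BCL6 and 29067, 30293 and 29586 with mutant BCL6. All mutant libraries were lower, at 1108 ± 22.0 against 1519 ± 5.86 CPM, 1.37-fold (log2 fold change -0.45, SE 0.03). The gene overlaps the antisense gene EZR-AS1, whose reads cannot be told apart without strand.

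MSN, the gene of moesin, an ERM protein abundant in lymphocytes, held 16991, 16743 and 17139 counts with wild-type BCL6 and 14660, 16047 and 14963 with mutant BCL6. After scaling it was lower in every mutant library, 620, 641 and 628 against 547, 598 and 562 CPM, but the highest mutant library came close to the lowest wild-type library. The difference was 1.11-fold (log2 fold change -0.15, SE 0.03). A processed pseudogene, MSNP1, could take or give reads, and the rule for multi-mapping reads is not given in the sources used here.

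RDX, the radixin gene, was the least abundant of the ERM genes and the only ERM gene that was higher with mutant BCL6. It held 3977, 4025 and 3907 counts against 4204, 4609 and 4345, or 145, 154 and 143 against 157, 172 and 163 CPM. The lowest mutant library was only just above the highest wild-type library, and the means differed 1.11-fold (log2 fold change 0.15, SE 0.04). The signs of the MSN and RDX differences were the same under all 4 scalings tried and with each library left out.

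Within the ERM genes the balance moved away from EZR. The log2 ratio of MSN to EZR counts was -1.27 ± 0.02 (SD, n = 3) with wild-type BCL6 and -0.96 ± 0.04 with mutant BCL6, and that of RDX to MSN -2.09 ± 0.04 and -1.80 ± 0.01. Per kilobase EZR held 72.2%, 71.4% and 71.9% of ERM transcript in the wild-type libraries and 66.9%, 65.8% and 66.8% in the mutant libraries. The share of MSN was 23.4 ± 0.268% and 26.8 ± 0.497%, and that of RDX 4.80 ± 0.153% and 6.76 ± 0.116%. Summed ERM transcript was 683 ± 4.83 against 539 ± 15.1 CPM per kilobase.

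Per kilobase, the order with wild-type BCL6 was EZR (491 ± 1.89), MSN (160 ± 2.68), SPTAN1 (49.5 ± 0.603), RDX (32.8 ± 1.28), SPTBN1 (23.3 ± 0.722), ANK1 (1.76 ± 0.0802), VIM (0.152 ± 0.0921) and SPTB (0.0196 ± 0.00976). In the mutant rescue SPTBN1 (123 ± 2.69) took the third place behind MSN (144 ± 6.59), ahead of SPTAN1 (71.5 ± 0.804) and RDX (36.4 ± 1.65), and VIM (1.28 ± 0.197) stood above ANK1 (0.542 ± 0.0504). Neighbours in these orders were separated by more than their SDs, but VIM and SPTB with wild-type BCL6 both rest on 14 counts or fewer per library. SPTAN1 and RDX change places in both rescues when coding length is used.

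**Figure D3:**
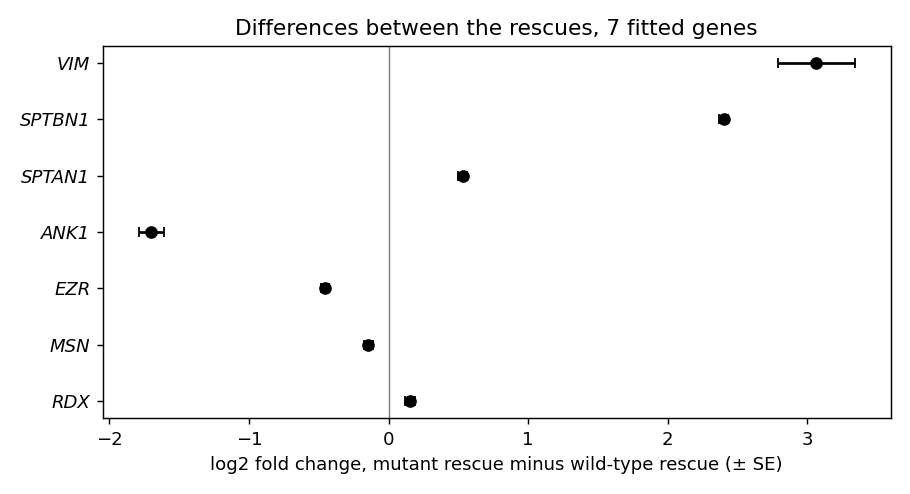
Log2 fold change of the 7 fitted genes, mutant minus wild-type rescue, with bars of 1 SE from the edgeR fit. VIM at 3.07 has the widest bar, SPTBN1 stands at 2.40 and SPTAN1 at 0.53, ANK1 lies at -1.70, and the ERM genes lie between -0.45 and 0.15.

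Genes that are no members of the group but belong to the same structures were counted in the test over all genes, whose share called was 70.1%. In the 7 lists described next, 66.7% to 81.8% of the tested genes were called. Among 11 tested spectrin repeat and ankyrin relatives, 5 rose and 4 fell, and 2 passed in neither direction, with a median log2 fold change of 0.01 (also 0.01 over all tested genes). The median absolute log2 fold change was 0.99, against 0.29 over all tested genes. UTRN encodes the spectrin repeat protein utrophin and held 2621, 2595 and 2582 counts against 9690, 9455 and 9405. It rose 3.68-fold, from 96.5 ± 2.45 CPM (log2 fold change 1.88, SE 0.03; edgeR, adjusted p = 9.45e-21). Its relative DMD, the dystrophin gene, rose 1.45-fold, from 82.0 ± 2.54 to 119 ± 2.09 CPM (edgeR, adjusted p = 4.14e-11). ACTN1, an alpha-actinin gene named after its value was seen, rose at a low level (18, 9 and 18 against 60, 52 and 59 counts), while the abundant ACTN4 fell slightly (log2 fold change -0.15).

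Genes of the junctions between spectrin, actin and the membrane were mixed: 5 of 14 rose, 6 fell and the test was not passed by 3 (median log2 fold change -0.14). EPB41L2, of the protein 4.1 family, rose 3.10-fold, from 11.8 ± 0.821 to 36.6 ± 2.42 CPM (edgeR, adjusted p = 8.05e-15). EPB41, the founding protein 4.1 gene, rose 1.36-fold, from 351 ± 15.1 to 477 ± 15.3 CPM (edgeR, adjusted p = 3.44e-10). ADD3, an adducin gene whose product caps actin and recruits spectrin, rose 1.35-fold to 294 ± 11.9 CPM (edgeR, adjusted p = 3.21e-10). STOM, the gene of the membrane protein stomatin, fell 1.32-fold to 21.0 ± 0.678 CPM (edgeR, adjusted p = 1.43e-06). A further 7 genes of the list, among them the red cell genes SLC4A1, EPB42 and EPB49, were too low to be tested.

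Of 16 other intermediate filament and linker genes, 11 were too low to be tested. Desmin, GFAP, the neurofilament genes NEFL and NEFM and SYNM were at 0 in every library, and the keratin genes KRT8 and KRT18 held at most 1 count. KRT10 was the only other cytoplasmic filament gene of the list that passed the filter on low counts. Of the 5 that could be tested, 2 rose, 2 fell and PLEC did neither. LMNB1 rose 1.32-fold, from 489 ± 4.80 to 647 ± 21.8 CPM (edgeR, adjusted p = 2.54e-10), and KRT10 rose 1.26-fold to 31.3 ± 1.80 CPM (edgeR, adjusted p = 1.35e-05). LMNA fell 1.70-fold from a low 4.60 ± 0.418 CPM (edgeR, adjusted p = 5.07e-05), and LMNB2 fell 1.10-fold (edgeR, adjusted p = 0.00199). PLEC, the gene of the filament linker plectin, did not pass the test (log2 fold change 0.08, SE 0.09; edgeR, adjusted p = 0.435).

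Regulators of the ERM proteins were split, with 5 of 13 higher, 4 lower and 4 not passing the test (median log2 fold change 0.09). PIP5K1B and PIP5K1A encode kinases that make the membrane lipid PIP2, which opens ERM proteins. PIP5K1B rose 2.06-fold, from 6.80 ± 0.547 to 14.0 ± 0.787 CPM (edgeR, adjusted p = 7.03e-10), and PIP5K1A 1.34-fold to 168 ± 7.84 CPM (edgeR, adjusted p = 2.13e-09). NF2, the gene of the ERM-related tumour suppressor merlin, fell 1.37-fold, from 111 ± 1.97 to 81.2 ± 2.84 CPM (edgeR, adjusted p = 7.39e-10). Of the kinases that phosphorylate the ERM tail, SLK fell 1.28-fold to 74.5 ± 2.91 CPM (edgeR, adjusted p = 6.72e-08) and STK10 rose slightly (log2 fold change 0.09; edgeR, adjusted p = 0.0233). RHOA (log2 fold change 0.06, SE 0.03) and SLC9A3R1 (-0.04, SE 0.06), the gene of the scaffold that binds ezrin, did not pass the test.

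Membrane proteins that bind ERM proteins moved in opposite directions: 3 of 9 rose, 3 fell and 3 were not called (median log2 fold change -0.10). The adhesion molecule gene ICAM1 rose 4.23-fold, from 74, 84 and 74 to 332, 334 and 310 counts (edgeR, adjusted p = 1.56e-13). CD44, the hyaluronan receptor gene, fell from 109, 109 and 119 to 10, 12 and 15 counts (log2 fold change -3.16; edgeR, adjusted p = 5.83e-12). ICAM2 fell 1.40-fold to 11.7 ± 0.684 CPM, and SELPLG, which encodes a selectin ligand, rose 1.43-fold to 10.7 ± 0.179 CPM (edgeR, adjusted p = 5.11e-06 and 1.14e-05). SPN, the CD43 gene and the most abundant of these partners in counts, rose slightly (log2 fold change 0.17).

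All 29 cortical actin genes were abundant enough to be tested, with 8 that rose, 14 that fell and 7 not called (median log2 fold change -0.10). LCP1, the gene of the leukocyte actin bundler L-plastin, fell 1.73-fold, from 2461 ± 52.0 to 1425 ± 79.0 CPM (edgeR, adjusted p = 1.03e-13). ACTR3, of the branching complex Arp2/3, fell 1.36-fold to 773 ± 22.6 CPM, and the myosin light chain gene MYL6 rose 1.31-fold to 558 ± 4.33 CPM (edgeR, adjusted p = 2.80e-11 and 1.04e-10). Of the calpain genes, whose proteases cut spectrin, CAPNS1 fell 1.17-fold and the inhibitor gene CAST rose 1.09-fold (edgeR, adjusted p = 2.55e-06 and 0.00529), while CAPN1 did not pass the test (log2 fold change -0.03, SE 0.03). CAPN2 held at most 2 counts.

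**Figure D4:**
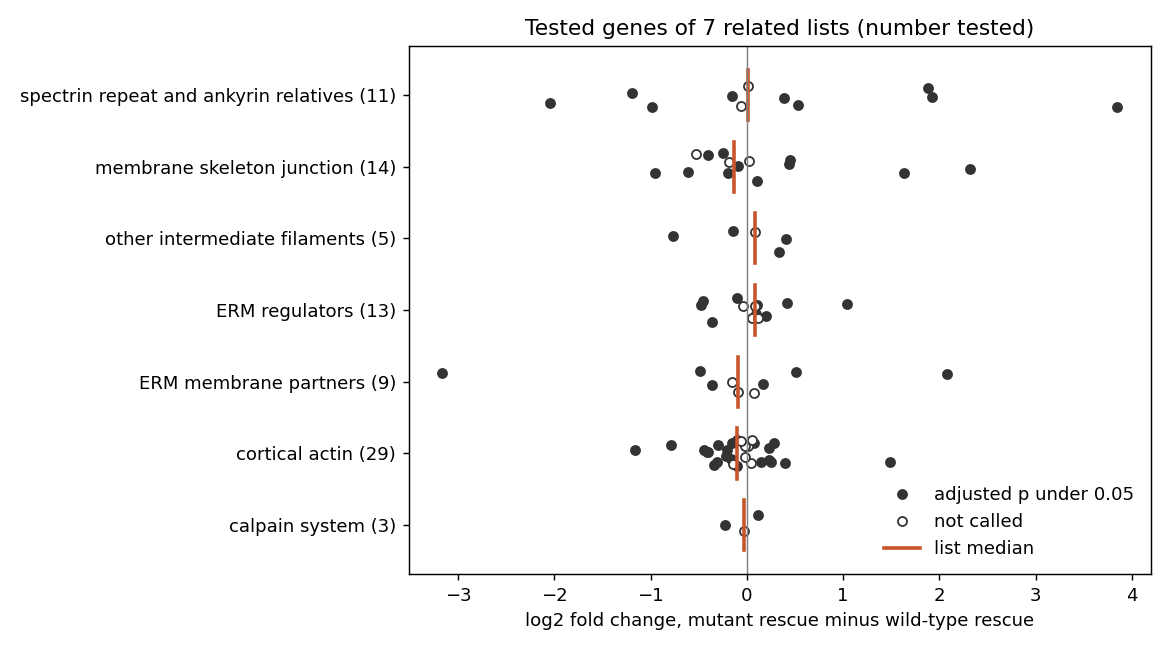
Log2 fold changes, mutant minus wild-type rescue, of the tested genes in 7 lists of related genes, with filled points for an adjusted p under 0.05, open points for genes not called and an orange bar at each list median. All list medians lie between -0.14 and 0.09, and the lowest point is CD44 at -3.16.

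The genes whose profile over the 6 libraries was most like that of SPTBN1 were ST3GAL5, TLE1 and ARPP21. Likeness was the root mean square difference between log2 CPM profiles centred on their own means, over 8709 candidates with at least 10 CPM on average. It was 0.0345 for ST3GAL5, a ganglioside synthase gene (11.1 ± 0.288 to 57.4 ± 0.257 CPM), 0.0596 for the corepressor gene TLE1 (6.74 ± 0.493 to 37.5 ± 0.638 CPM) and 0.0602 for ARPP21 (111 ± 2.15 to 621 ± 5.50 CPM). With replicates this close, such likeness mainly reflects a similar fold change in the contrast that chose SPTBN1. The log2 fold changes were 2.37, 2.48 and 2.48, against 2.40 for SPTBN1. For VIM the nearest were PHYH, KREMEN1 and EFNA5 at 0.413, 0.413 and 0.428. These genes were high in the mutant libraries like VIM, but at 69.3 ± 2.54, 33.3 ± 1.52 and 32.0 ± 1.19 CPM.

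The tested genes next to the 7 fitted members on the chromosomes, by the order of the RefSeq annotation, were mixed. Of 14 such neighbours, 2 rose, 6 fell and 6 were not called. Thus 8 of 14 were called, beside 70.1% of all tested genes, and nothing about the members is read from these counts. Beside SPTBN1, ACYP2 did not pass the test (log2 fold change 0.16; edgeR, adjusted p = 0.0816) and EML6 fell (-0.64; edgeR, adjusted p = 0.0161). Beside VIM, TRDMT1 fell (-0.73; edgeR, adjusted p = 3.02e-08) and STAM rose slightly (0.17; edgeR, adjusted p = 0.00508). These neighbours are named by position and not by the size of their change.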

How the data were processed

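RNA was sequenced from 3 wild-type rescue and 3 RD2-mutant rescue libraries of OCI-LY1. Per the labels' protocols, Trizol was used for total RNA and the TruSeq RNA guide of Illumina for the libraries. The submitters' processing notes name CASAVA 1.8.2, STAR, edgeR and the build hg19. The read counter, its annotation and strand setting, and the treatment of multi-mapping reads were not given in the sources used here. Values deposited by the authors are raw counts by gene symbol with 1 column for each library, not pooled by the authors.

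In R 4.3.3, edgeR 4.0.16 kept 12406 genes (filterByExpr defaults), scaled by TMM, and compared the rescues with a robust quasi-likelihood test. P-values were adjusted by Benjamini-Hochberg across every gene tested and called under 0.05, and the test was tried on simulated data. A rank or permutation test of 3 against 3 cannot go below p = 0.1. Log2 fold changes are mutant minus wild-type. SEs come from the fold change and the F statistic. Replicate pairs differed by more than counting noise (chi-square per degree of freedom 1.60 to 5.47). The pairs with the second mutant library differed most (5.47 and 4.36, against 1.75 for the remaining mutant pair). All 6 libraries were kept. In CPM, the floor of 3 counts is 0.109 to 0.115. Promoters came from RefSeq (GRCh38.p14) and lengths from GENCODE v29, matched by symbol. Gene order was matched for 96.3% of tested genes.

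The members and lists were chosen with earlier results of these data known. Named genes are the members, BCL6, up to 4 genes per list with the smallest p, and the 3 most alike genes of VIM and of SPTBN1; others are named for a family total or by position, or as the text says. Results for a few genes of the lists are not reported here, although the counts include them. Genes from the lists named without a remark beyond these 4 were chosen after their values were seen. Alternatives tried were DESeq2 1.42.0, voom in limma 3.58.1, scaling by RLE, by upper quartile or by library size alone, no filter, at least 1 CPM in all libraries, a replicate block, glmTreat and leaving out each library. Coding length was added after seeing the data.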

Additional observations from a re-analysis of the deposited data

How the results depend on the processing

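The directions of the 7 fitted genes were the same under every alternative that gave them a value; VIM has none with at least 1 CPM required in all libraries, and SPTB was fitted only with no filter. VIM moved most, to a log2 fold change of 3.61 without the second wild-type library, and library size scaling gave 0.56 for SPTAN1 and -0.43 for EZR. Against a minimum change of 1.2-fold (glmTreat) the genes called over all genes were 4585 in place of 8702 (37.0%), those of the spectrin repeat and ankyrin relatives 7 in place of 9, membrane skeleton junction 7 in place of 11, other intermediate filaments 2 in place of 4, ERM regulators 5 in place of 9, ERM membrane partners 4 in place of 6, cortical actin 8 in place of 22 and the calpain system 0 in place of 2 (0 also at an unadjusted p under 0.05 in glmTreat, and 2 by DESeq2 and by voom), because small differences fall under that minimum. With each library left out in turn, the genes called over all genes ran from 8099 to 8916. The labels give both rescues the numbers 1 to 3. The deviations of same-numbered libraries had correlations of 0.136, 0.172 and -0.0548. Those of different-numbered libraries ran from -0.181 to 0.0732, so 0.136 and 0.172 were the highest values. The numbers were not taken as pairs, but these values do not settle whether the libraries were paired. With the replicate block 9285 genes were called. Depth limits VIM and SPTB, which rest on a few counts per wild-type library, and family shares shift with the length chosen (EZR 66.0% and 60.1% of ERM transcript with coding length).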
